A study of Mus musculus with 4 samples.

Results

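The 70 genes described here are the heat shock proteins and J-domain chaperones measured in mouse trigeminal ganglion, the sensory ganglion of the face. They were chosen by name alone, as the rows of the expression table whose symbols begin with Hspa, Hspb, Hspc, Hspd, Hspe or Hsph, or are Dnaja, Dnajb or Dnajc followed by a number, without pseudogene names, and they are 70 of 56035 gene rows. The study sequenced mRNA from ganglia of TRPV1 K823R mice, labelled transgenic in the genotype field and knock-in in the protocol, and of their WT littermates. TRPV1 is the heat- and capsaicin-gated channel of pain-sensing neurons, and K823R replaces a lysine of it by arginine. All mice were male C57BL/6 aged 8 weeks, and each genotype had 2 libraries. The protocol names 2 pairs of ganglia without tying them to libraries, and the labels do not say that libraries came from separate mice, so the p-values measure only the spread between these libraries. Levels are in TPM, transcript numbers scaled for gene length and to a fixed total per library. Read depth is unknown.

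Heat shock proteins are chaperones that bind unfolded stretches of other proteins and help them fold, refold or be degraded. HSP70 does this in cycles of ATP hydrolysis: J-domain proteins deliver clients and trigger hydrolysis, and nucleotide exchange factors such as HSP110 release the client. Many of these genes are transcribed by heat shock factor 1 when proteins unfold, whereas the chaperones of the endoplasmic reticulum (ER) answer to the unfolded protein response. Among them, Hspb1 is well known in peripheral neurons because mutations of its human counterpart cause peripheral neuropathy.

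The domain annotation in the deposited table matched the family names with 1 exception. The DnaJ domain was listed for 43 of 43 Dnaj genes, the HSP70 domain for 14 of 14 Hspa and Hsph genes and the HSP20 domain for 7 of 8 Hspb genes. The exception was Hspb11, a subunit of the intraflagellar transport machinery of cilia, for which other domains were listed. The 70 genes included 43 J-domain genes, 11 of the HSP70 family, 3 of the HSP110 type, 8 Hspb genes, the chaperonin genes Hspd1 and Hspe1, and the binding proteins Hspbp1 and Hspbap1. The HSP90 genes carry other names and are given below as pathway genes.

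The sensory neuron markers of a ganglion were present. All 16 sensory neuron markers examined were at 1 TPM or more in every library, with summed levels of 19218 and 18604 TPM in K823R and 19874 and 17190 TPM in WT. WT replicate 1 differed from the rest in markers of other cells. Its 12 central glia markers summed to 23.1 TPM, against 231 TPM in WT replicate 2 and 281 and 335 TPM in K823R, and its 11 fibroblast and meningeal markers to 356 TPM, against 1105 TPM in WT replicate 2 and 2945 and 932 TPM in K823R. Mog, Olig2, Opalin and Dpt, defining markers of those cells, were listed at 0 in WT replicate 1. Mog had 11.9 and 18.0 TPM in K823R and 9.59 TPM in WT replicate 2. Olig2, Opalin and Dpt were at 1.14 TPM or less in every library, so their zeros say little. Of the fibroblast and meningeal sum, Ptgds alone gave 2374 and 472 TPM in K823R, 577 TPM in WT replicate 2 and 109 TPM in WT replicate 1. In that sum K823R replicate 1 stood apart on the high side, and all 11 of these markers were lowest in WT replicate 1. The central glia markers separated by genotype too, since WT replicate 2 was also below K823R in their sum. Of the 10 that were tested, 10 were higher in K823R without overlap and 0 overlapped, with a median log2 difference of 1.57. None was called, and their smallest adjusted p was 0.918 (limma). Summed pituitary markers were higher in both K823R libraries than in both WT libraries, whereas summed myelinating Schwann cell markers overlapped. The 8 pituitary markers summed to 23.8 and 20.1 TPM in K823R, against 2.54 and 4.80 TPM in WT, with Lhb and Fshb listed at 0 in all libraries. The 11 myelinating Schwann cell markers summed to 14590 and 17360 TPM in K823R, against 11827 and 14700 TPM in WT. Of these 11, 10 had the higher mean in K823R, and 9 were lowest in WT replicate 1. The part of these differences in the chaperone values and in the leanings of the gene lists below was not tested. In whole ganglia, fewer cells of a type and less RNA per cell cannot be told apart. Trpv1 itself had 40.9 and 35.0 TPM in K823R, against 39.2 and 30.6 TPM in WT, a log2 difference of 0.12 ± 0.15 (SE; limma adjusted p = 0.938) that was -0.048 without WT replicate 2. Its level cannot check a change of 1 amino acid.

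The chaperones were abundant, and a few genes carried most of their transcripts. Together they made up 0.769% and 0.763% of all TPM in K823R, against 0.797% and 0.708% in WT. Of the 70 genes, 16 averaged at least 100 TPM, 56 at least 10 TPM and 63 at least 1 TPM, and the same number, 63, reached 1 TPM in every library. The 7 genes under 1 TPM on average included Hspb3, Hspb7, Hspb9, Dnajb7, Dnajb8 and Dnajb13, of which Dnajb8 was listed at 0 in all 4 libraries.

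Hspa8, the constitutive cytosolic HSP70, led the order, with 35.9% and 35.0% of the chaperone TPM in K823R and 35.0% and 34.6% in WT. Hspb1, a small heat shock protein, was next, followed by Dnaja1, a cytosolic partner of Hspa8, and the ranges of these 3 genes over the 4 libraries did not overlap with one another or with the next gene. The small heat shock protein gene Hspb8 (mean of all libraries 314 TPM) and the chaperonin gene Hspe1 (285 TPM) overlapped, and both stood above Hspd1, Hspa12a, Hsph1, Hspa5 and Dnajc7, which had means between 185 and 214 TPM and overlapped in turn. The 5 most abundant genes held 58.3% and 57.6% of the chaperone TPM in K823R, against 58.8% and 56.8% in WT.

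**Figure D1:**
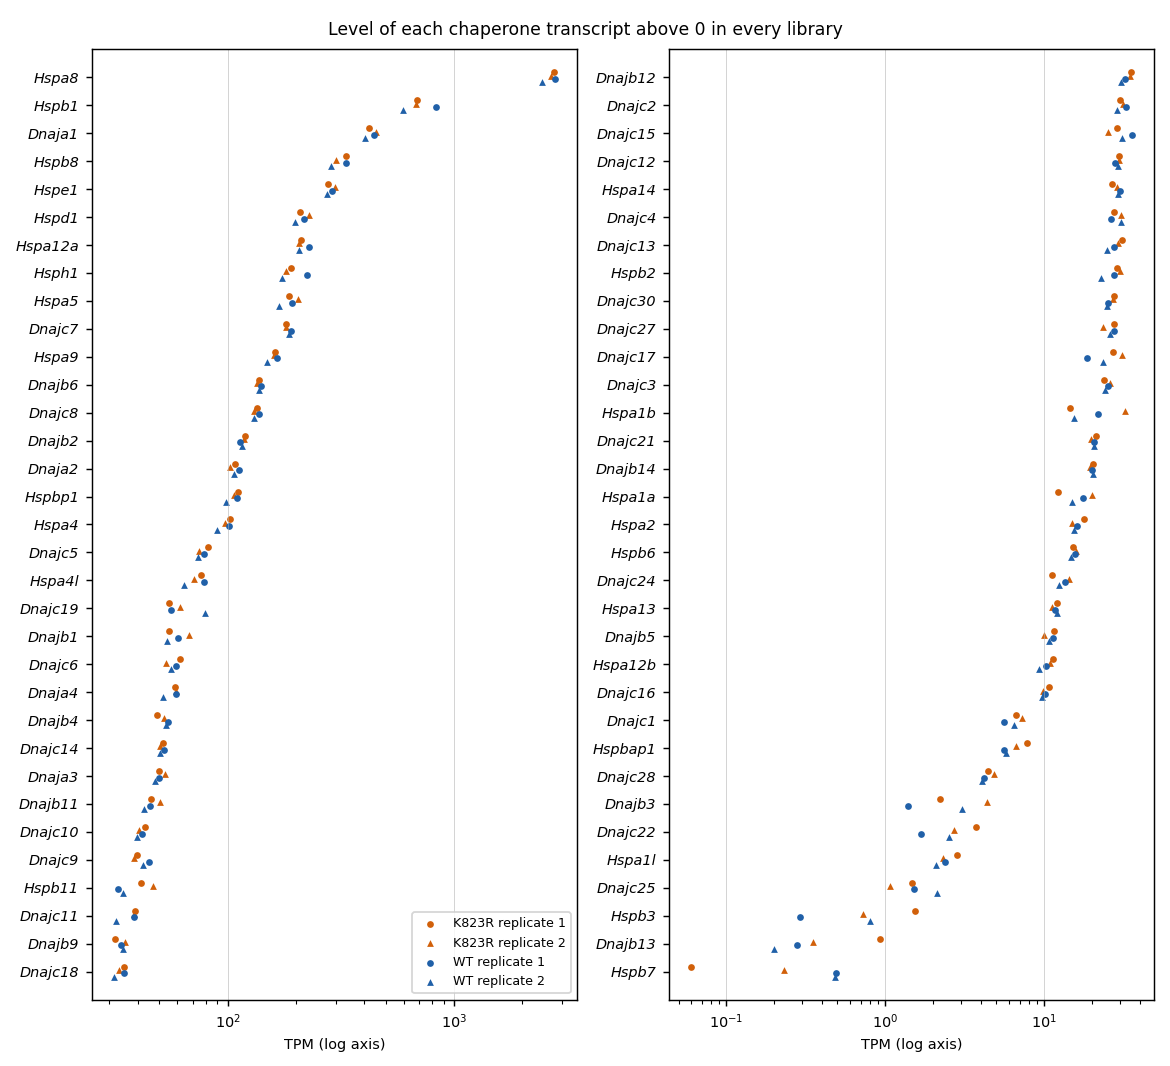
Level in TPM (log axis, with a different range in each panel) of each chaperone gene above 0 in every library, ordered by mean from the upper left, with orange points for the 2 K823R libraries and blue points for the 2 WT libraries. For most genes the 4 points lie close together. The widest spread on this axis above 10 TPM is that of Hspa1b (14.6 and 32.2 TPM in K823R, 21.9 and 15.5 TPM in WT), followed by Dnajc17 and Hspa1a.

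The comparison of K823R with WT asks whether a changed TRPV1 goes with a changed set of chaperones in the ganglion. No chaperone passed the test. In limma on log2(TPM + 1), over all 15390 genes averaging at least 1 TPM, 0 of 63 tested chaperones reached an adjusted p of 0.05, and the smallest adjusted p among them was 0.918. The background was 0.0065%, a single gene that was not a chaperone. At an unadjusted p under 0.05 there were 2 chaperones, Hspb11 and Dnajc17, both higher in K823R, and 0 lower in K823R, against a background of 4.76% of all genes (2.57% higher and 2.19% lower). These counts depended on the scaling and on single libraries. With median-of-ratios scaling and with quantile normalization Dnajc17 missed that level (limma unadjusted p = 0.051 and 0.056). Under the same scalings Dnajc15, lower in K823R, met it (limma unadjusted p = 0.028 and 0.027), which made 1 higher and 1 lower. The count was 2 without K823R replicate 1, 0 without K823R replicate 2, 4 without WT replicate 1 and 5 without WT replicate 2. Differences given below are therefore descriptions of the 4 libraries.

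The differences between the genotypes were small. The median absolute log2 difference was 0.061 over the 63 tested chaperones and 0.10 over all tested genes, and 0 chaperones exceeded 0.5, against a background of 7.10% of genes. Among genes averaging at least 10 TPM the share of all genes over 0.5 was 2.73% of 9100, again with 0 of 56 chaperones, and the median standard error was 0.092 for the chaperones and 0.10 for all such genes. For 55 of these 56 chaperones the 95% interval of the difference (limma) lay within 1 log2 unit of 0, and for 49 within 0.5. The exception at 1 was Hspa1b.

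In direction, 39 of the 63 chaperones were higher and 24 lower in K823R, where the background was 57.4% of genes higher. The median signed log2 difference was 0.039 for the chaperones and 0.026 for all genes. Without WT replicate 1 the chaperone median was 0.085, and without WT replicate 2 it was -0.010. The groups did not overlap for 20 chaperones, with K823R above WT for 14 and below WT for 6, against a background of 34% of genes (19.4% above and 14.6% below), and they overlapped for the other 43.

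**Figure D2:**
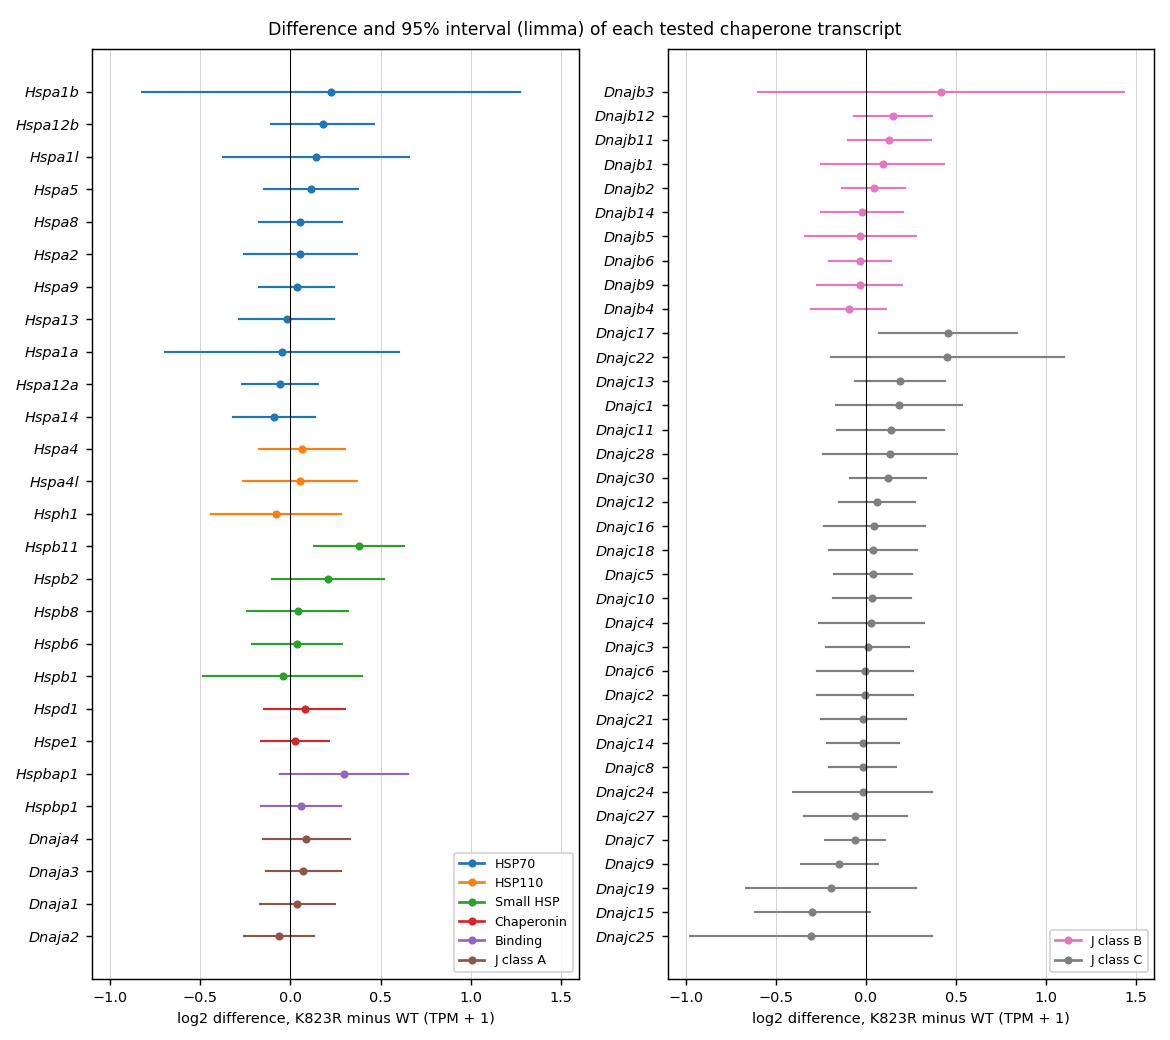
Difference in log2(TPM + 1), K823R minus WT (point), with its 95% interval from limma (line) for the 63 tested chaperone genes, grouped by family and colored as in the legends. All points lie between -0.31 and 0.45, and the lines of 2 genes, Hspb11 and Dnajc17, stay clear of 0 before any adjustment.

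Of the HSP70 family, 7 of 11 genes had the higher mean in K823R and 4 in WT; the median log2 difference was 0.055, and 0 were called. Hspa8 (chr9:40800984-40810087, plus strand, GRCm38) had 2760 and 2675 TPM in K823R, against 2788 and 2452 TPM in WT. WT replicate 2 was the lowest library and WT replicate 1 the highest, so the groups overlapped, and the log2 difference was 0.056 ± 0.088 (SE; limma adjusted p = 0.954). Without WT replicate 2 it was -0.037, and without WT replicate 1 it was 0.15. The share of Hspa8 in the TPM of its family hardly moved, at 80.8% and 79.4% in K823R and 80.0% and 79.7% in WT. Hspa9, the mitochondrial HSP70 that also pulls imported proteins into the matrix, had 162 and 161 TPM in K823R, against 165 and 150 TPM in WT, again with overlap and WT replicate 2 lowest.

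The stress-induced pair Hspa1a and Hspa1b, which are nearly silent in many unstressed cells and are the textbook readout of a heat shock response, were present at low levels and had the largest standard errors of all chaperones averaging at least 10 TPM. Hspa1a had 12.2 and 20.1 TPM in K823R, against 17.6 and 15.1 TPM in WT. Hspa1b had 14.6 and 32.2 TPM in K823R, against 21.9 and 15.5 TPM in WT. For both genes K823R replicate 1 was the lowest library and K823R replicate 2 the highest, with the WT libraries between them.

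The log2 difference was -0.049 ± 0.25 for Hspa1a (SE; limma adjusted p = 0.989) and 0.23 ± 0.40 for Hspa1b (adjusted p = 0.958), with a 95% interval of -0.82 to 1.27 for Hspa1b. A single library set the sign of both. Hspa1a was at 0.29 without K823R replicate 1 and 0.058 without WT replicate 1, and Hspa1b at -0.32 without K823R replicate 2 and -0.010 without WT replicate 2. Summed, the pair had 26.8 and 52.3 TPM in K823R, against 39.5 and 30.5 TPM in WT, and it held 0.784% and 1.55% of the family's TPM in K823R, against 1.13% and 0.993% in WT.

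The split between the pair is uncertain, because their transcripts match over 2201 bases at 99.2% identity and neither the strand setting nor the handling of shared reads is known from the labels or notes. The genes lie 9951 bases apart on the minus strand of chromosome 17 (Hspa1a, chr17:34969190-34972156; Hspa1b, chr17:34956436-34959238). Their promoters are near copies too. The RefSeq windows from 250 bases before to 50 after each start site (GRCm38.p6, minus strand, chr17:34972107-34972406 for Hspa1a and chr17:34959189-34959488 for Hspa1b) differ at 4 of 300 bases, an identity of 98.7%. They are shown because the pair had the same order of libraries, and the capitals mark the 4 bases that differ.
Hspa1a: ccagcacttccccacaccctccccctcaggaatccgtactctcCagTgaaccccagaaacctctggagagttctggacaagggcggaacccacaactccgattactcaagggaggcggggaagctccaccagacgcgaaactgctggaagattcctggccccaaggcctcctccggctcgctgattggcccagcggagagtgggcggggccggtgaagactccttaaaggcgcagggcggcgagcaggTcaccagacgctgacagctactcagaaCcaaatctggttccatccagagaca
Hspa1b: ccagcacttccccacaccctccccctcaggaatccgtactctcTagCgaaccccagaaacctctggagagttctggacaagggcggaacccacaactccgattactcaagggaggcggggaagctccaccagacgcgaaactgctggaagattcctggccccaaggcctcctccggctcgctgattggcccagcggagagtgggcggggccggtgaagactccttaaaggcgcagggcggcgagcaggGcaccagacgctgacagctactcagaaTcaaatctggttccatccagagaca
Neither window held the heat shock element as spelled here, that is GAA, TTC and GAA, or TTC, GAA and TTC, with NN between neighbours, searched on both strands. That says only that these letters are not in these windows.

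Hspa5, the HSP70 of the ER (BiP) and a standard readout of the unfolded protein response, had 187 and 205 TPM in K823R, against 193 and 169 TPM in WT. WT replicate 2 was the lowest and K823R replicate 2 the highest library, and the groups overlapped. The log2 difference was 0.11 ± 0.099 (SE; limma adjusted p = 0.919), and it was 0.019 without WT replicate 2 and 0.21 without WT replicate 1. Leaving out K823R replicate 1 gave 0.18, and leaving out K823R replicate 2 gave 0.047. The promoter window of Hspa5 (RefSeq, GRCm38.p6, chr2:34771840-34772139, plus strand) held the ER stress element, written CCAAT, 9 bases of any kind and CCACG and searched on both strands, which is in 0.119% of the 32851 promoter windows in the table. It lies from -65 to -47 relative to the start site and is in capitals in the window, shown because the ER genes are described as a group below.
Hspa5: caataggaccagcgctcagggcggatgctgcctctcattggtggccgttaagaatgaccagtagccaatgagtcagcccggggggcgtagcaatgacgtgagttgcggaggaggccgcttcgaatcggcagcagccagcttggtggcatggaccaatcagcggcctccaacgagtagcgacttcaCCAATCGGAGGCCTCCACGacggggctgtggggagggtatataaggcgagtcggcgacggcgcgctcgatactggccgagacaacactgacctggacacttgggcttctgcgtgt
The only other chaperone window with this element was that of Dnajc3, an ER J-domain protein, at chr14:118937827-118937845 (plus strand).
Dnajc3: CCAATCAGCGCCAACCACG
Dnajc3 had 23.9 and 25.8 TPM in K823R, against 25.1 and 24.3 TPM in WT, with a log2 difference of 0.0090.

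**Figure D3:**
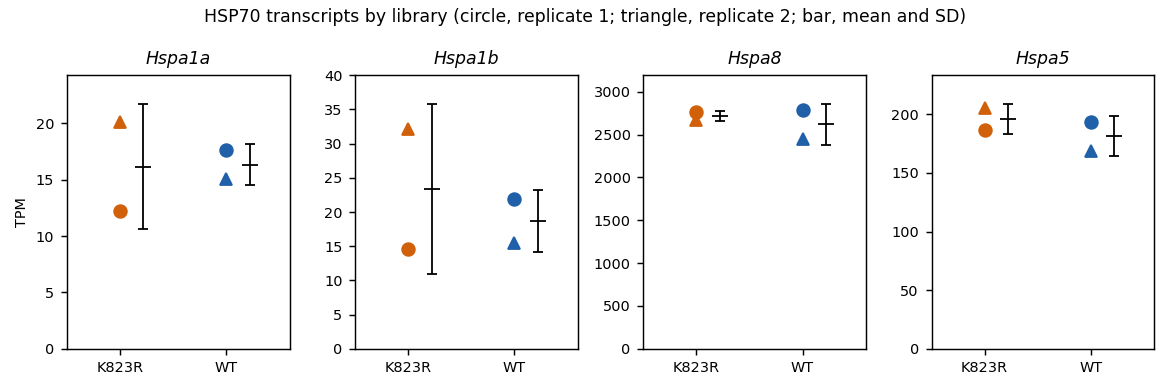
TPM of 4 HSP70 genes in the 2 K823R libraries (orange, left) and the 2 WT libraries (blue, right), with circles for replicate 1, triangles for replicate 2 and black bars for the mean and SD (n = 2). Hspa1a and Hspa1b are each lowest in K823R replicate 1 and highest in K823R replicate 2, whereas Hspa8 stays between 2452 and 2788 TPM.

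Of the 11 HSP70 genes, 9 overlapped between the genotypes, and the 2 that did not were Hspa14 and Hspa12b. Hspa14, which works on nascent chains at the ribosome with Dnajc2, had 26.7 and 28.8 TPM in K823R, against 30.0 and 29.3 TPM in WT, which puts K823R just below WT with a log2 difference of -0.091 (limma adjusted p = 0.932). Hspa12b, a distant relative found in endothelium, lay just above WT at 11.4 and 10.9 TPM in K823R, against 10.3 and 9.25 TPM in WT. Endothelial and mural cell markers summed to 203 and 184 TPM in K823R, against 159 and 190 TPM in WT, and their part in the Hspa12b values was not tested.

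The nucleotide exchange factors Hsph1, Hspa4 and Hspa4l, which reset HSP70 after each cycle, overlapped between the genotypes. Hsph1, the heat-inducible one, had 191 and 181 TPM in K823R, against 223 and 173 TPM in WT. The WT libraries enclosed the K823R libraries, and the log2 difference of -0.081 ± 0.14 (SE; limma adjusted p = 0.958) was 0.10 without WT replicate 1. Hspbp1, another exchange factor, had 111 and 106 TPM in K823R, against 110 and 98.8 TPM in WT. Hspbap1, which binds Hspb1, was low, at 7.83 and 6.63 TPM in K823R against 5.62 and 5.74 TPM in WT. Both K823R libraries of Hspbap1 lay above both WT libraries (log2 difference 0.30 ± 0.14, SE; limma adjusted p = 0.918).

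Of the 8 Hspb genes, 5 were tested, and 4 of them were higher in K823R. Hspb1, an ATP-independent holdase that keeps unfolded proteins soluble and protects axons, had 688 and 676 TPM in K823R, against 829 and 596 TPM in WT. The WT libraries lay on either side of the K823R libraries, with the widest gap between the WT libraries. The log2 difference was -0.044 ± 0.17 (SE; limma adjusted p = 0.986), and 0.19 without WT replicate 1. Hspb8, the partner of Bag3 in autophagic clearance, had 335 and 301 TPM in K823R, against 333 and 286 TPM in WT.

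Hspb11 had the smallest unadjusted p of all chaperones. It lies at chr4:107253593-107279938 on the plus strand (GRCm38), and it had 41.7 and 46.8 TPM in K823R, against 33.0 and 34.5 TPM in WT. Both K823R libraries were above both WT libraries, with means of 44.2 ± 3.66 TPM in K823R and 33.7 ± 1.05 TPM in WT (SD, n = 2 each). The log2 difference was 0.38 ± 0.094 (SE; limma unadjusted p = 0.011, adjusted p = 0.918), and it stayed between 0.30 and 0.46 when any single library was left out. By function Hspb11 is a cilium transport gene and not a heat shock protein. Hspb2, a small heat shock protein of muscle, also lay above WT, with 28.6 and 29.9 TPM in K823R against 27.7 and 22.9 TPM in WT. It shares 252 exon bases, on the other strand, with the far more abundant lens and glial chaperone gene Cryab (679 and 830 TPM in K823R, 673 and 721 TPM in WT), and reads of the 2 genes cannot be told apart there without strand.

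The mitochondrial chaperonin folds imported proteins in a barrel of Hspd1 capped by a ring of Hspe1. Hspd1 had 210 and 229 TPM in K823R, against 216 and 199 TPM in WT. Hspe1 had 278 and 297 TPM in K823R, against 290 and 276 TPM in WT. Both genes were highest in K823R replicate 2 and lowest in WT replicate 2, and both overlapped between the genotypes, with log2 differences of 0.080 ± 0.085 for Hspd1 and 0.025 ± 0.072 for Hspe1 (SE; limma adjusted p = 0.935 for Hspd1 and 0.979 for Hspe1). The ratio of Hspe1 to Hspd1 was 1.33 and 1.29 in K823R, against 1.34 and 1.39 in WT.

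The pair sits head to head on chromosome 1, with annotated starts 111 bases apart and 112 exon bases in common, and shares 1 stretch with a heat shock element, the binding motif of heat shock factors. The element was found for 0.662% of the 27025 gene symbols with a promoter window, and for 4 of the 58 chaperone genes that matched a window. Among these 4, Hspd1 and Hspe1 count the same stretch. The Hspe1 window (RefSeq, GRCm38.p6, chr1:55087898-55088197, plus strand) is shown with the element in capitals, from -89 to -72 relative to the start of Hspe1, because the same 18 bases (chr1:55088059-55088076) fall in the Hspd1 window when read on the minus strand.
Hspe1: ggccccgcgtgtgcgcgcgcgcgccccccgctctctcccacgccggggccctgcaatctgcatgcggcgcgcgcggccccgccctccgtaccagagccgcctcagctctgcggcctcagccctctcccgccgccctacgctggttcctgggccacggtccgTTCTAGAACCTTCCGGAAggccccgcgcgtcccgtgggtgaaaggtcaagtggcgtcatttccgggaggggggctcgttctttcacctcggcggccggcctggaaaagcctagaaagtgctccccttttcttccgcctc
The other chaperone genes with the element were Dnajb6, an inhibitor of protein aggregation (chr5:29735852-29735864, plus strand), and Hsph1, after its start site (chr5:149636288-149636300, minus strand).
Dnajb6: GAATCTTCCGGAA
Hsph1: TTCTGGAAAGTTC
None of these 4 genes was called. Dnajb6 had 137 and 134 TPM in K823R, against 141 and 137 TPM in WT.

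The J-domain genes summed to 2183 and 2206 TPM in K823R, against 2220 and 2138 TPM in WT, which made 0.639 and 0.655 TPM per TPM of the HSP70 family in K823R and 0.637 and 0.695 in WT. Of the 4 class A genes, general cytosolic and mitochondrial partners of HSP70, 3 were higher and 1 lower in K823R, and their groups overlapped in 4 of 4. Dnaja1 had 423 and 451 TPM in K823R, against 445 and 406 TPM in WT, with a log2 difference of 0.039 ± 0.080 (SE; limma adjusted p = 0.963). It alone gave 19.4% and 20.4% of the J-domain TPM in K823R, against 20.0% and 19.0% in WT.

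The tested class B genes split evenly, with 5 higher and 5 lower in K823R. Dnajb1, the heat-inducible partner of Hspa8 in disaggregation, had 54.8 and 67.5 TPM in K823R, against 60.2 and 53.8 TPM in WT. Like Hspa1a and Hspa1b, it was highest in K823R replicate 2, and the groups overlapped (log2 difference 0.094 ± 0.13, SE; limma adjusted p = 0.941). Without K823R replicate 2 the difference was -0.053. Dnajb12, an ER membrane protein that helps degrade misfolded proteins, had 35.2 and 34.7 TPM in K823R, against 32.5 and 30.3 TPM in WT, without overlap and with a log2 difference of 0.15 (limma adjusted p = 0.918). Dnajb4, a cytosolic relative of Dnajb1, had 48.6 and 52.2 TPM in K823R, against 54.4 and 53.5 TPM in WT, also without overlap, with a log2 difference of -0.097 (limma adjusted p = 0.918).

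Class C holds the specialised J-domain proteins, and 14 of its 26 genes were higher and 12 lower in K823R. Dnajc17, a nuclear protein with an RNA-binding domain, had 27.0 and 31.1 TPM in K823R, against 18.6 and 23.4 TPM in WT. Both K823R libraries were above both WT libraries, and the log2 difference of 0.45 ± 0.15 (SE; limma unadjusted p = 0.029, adjusted p = 0.918) was 0.30 without WT replicate 1 and between 0.36 and 0.61 without each of the other libraries. It lies at chr2:119172500-119208795 on the minus strand (GRCm38) and shares 108 exon bases with Zfyve19 on the other strand, which had 52.3 and 60.8 TPM in K823R and 49.0 and 50.3 TPM in WT. The part of Zfyve19 in the Dnajc17 values was not tested.

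Several class C proteins bring HSP70 to synaptic vesicles and endosomes. Dnajc5, the cysteine string protein of synaptic vesicles, had 81.8 and 75.1 TPM in K823R, against 78.4 and 74.2 TPM in WT, and Dnajc6, the neuronal auxilin that uncoats clathrin vesicles with Hspa8, had 61.9 and 53.3 TPM in K823R, against 59.0 and 56.3 TPM in WT. Both overlapped. Dnajc13, an endosomal sorting protein, did not, with 30.9 and 29.2 TPM in K823R against 27.7 and 25.0 TPM in WT and a log2 difference of 0.19 ± 0.095 (SE; limma adjusted p = 0.918). Dnajc22 was low, at 3.74 and 2.72 TPM in K823R against 1.67 and 2.53 TPM in WT, also without overlap and with a log2 difference of 0.45 ± 0.25 (SE; limma adjusted p = 0.918), which was 0.25 without WT replicate 1 and 0.28 without K823R replicate 1.

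The class C genes that were lower in K823R included mitochondrial and histone chaperones. Dnajc15, a protein of the mitochondrial inner membrane, had 28.7 and 25.1 TPM in K823R, against 35.9 and 30.7 TPM in WT. The groups did not overlap, and the log2 difference was -0.30 ± 0.12 (SE; limma unadjusted p = 0.062, adjusted p = 0.918), or -0.19 without WT replicate 1 and -0.41 without WT replicate 2. Dnajc19, a subunit of the motor that imports proteins into the matrix, had 55.4 and 61.4 TPM in K823R, against 56.5 and 79.3 TPM in WT, with a log2 difference of -0.20 that was 0.046 without WT replicate 2, the highest library. Dnajc9, a histone chaperone, had 40.0 and 38.5 TPM in K823R, against 45.0 and 42.2 TPM in WT, without overlap (log2 difference -0.15 ± 0.081, SE; limma adjusted p = 0.918). Dnajc25 had 1.48 and 1.07 TPM in K823R, against 1.51 and 2.13 TPM in WT, with a log2 difference of -0.31 (limma adjusted p = 0.918) that lay between -0.47 and -0.15 when any single library was left out.

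By compartment, the differences were small throughout. Of 13 ER chaperones, 8 leaned to higher values in K823R and 5 to lower ones (median log2 difference 0.033). Of 8 mitochondrial ones, 6 were higher and 2 lower, with a median of 0.053. Of 11 listed as heat-inducible, 8 were higher and 3 lower, with a median of 0.040, and the groups overlapped in 11 of 11. That list also holds Hspa8, described above as constitutive, and Hspa4l, so it does not stand for induced genes alone. The heat-inducible median changed sign with single libraries, at -0.037 without WT replicate 2 and 0.15 without WT replicate 1, and it was -0.021 when K823R replicate 2 was left out.

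Between the genotypes, the median absolute log2 difference of the genes listed as heat-inducible was 0.051. WT replicate 1 was above WT replicate 2 in 11 of 11 of them, with a median log2 gap of 0.21. Over all genes that gap was 0.047. A gap between single libraries spreads more than a difference between means of 2, so 0.21 and 0.051 are not like measures. WT replicate 2 was the lowest of the 4 libraries in 9 of the 11 genes. Over all 63 tested chaperones WT replicate 1 was above WT replicate 2 in 49, or 77.8%, where 58.4% of all genes were, and WT replicate 2 was the lowest library for 50.8% of chaperones and 35.7% of all genes. The summed sensory neuron markers had the same order of libraries as the summed chaperones, with WT replicate 1 highest and WT replicate 2 lowest. Summed blood markers had the same extremes, with 492 TPM in WT replicate 1, 245 TPM in WT replicate 2 and 319 and 334 TPM in K823R. Mitochondrially encoded genes held 6.88% of TPM in WT replicate 2, 6.12% in WT replicate 1 and 6.09% and 6.28% in K823R. The part of these traits in the chaperone values was not tested. Replicate 2 exceeded replicate 1 in K823R for 6 of the 11 heat-inducible genes, with a median log2 gap of 0.091.

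**Figure D4:**
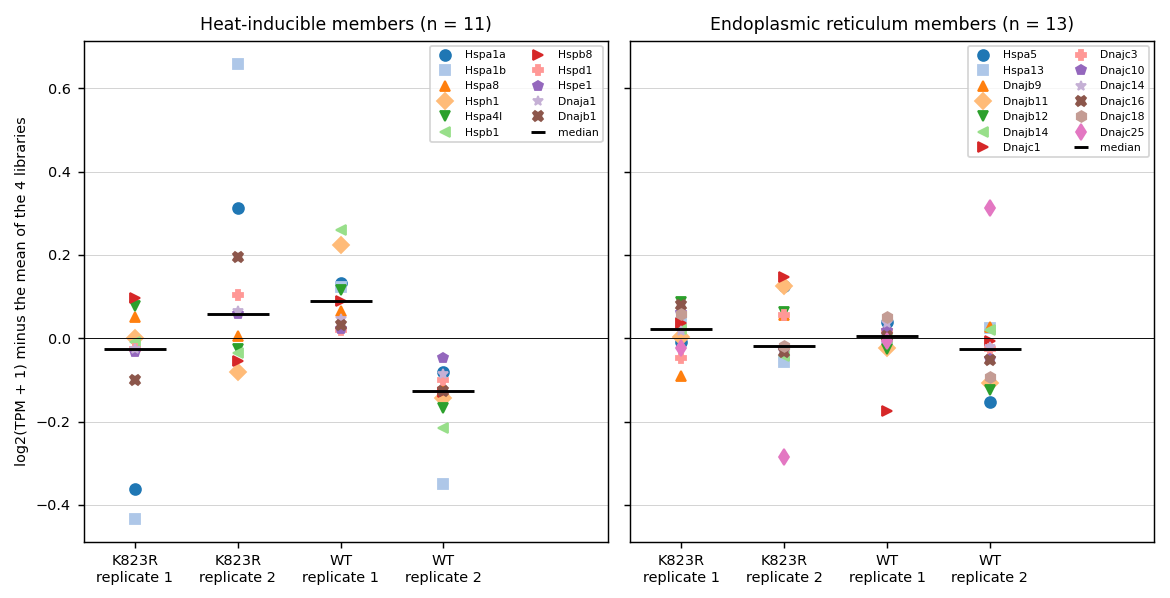
Deviation of each library from the mean of the 4 libraries, in log2(TPM + 1), for 11 heat-inducible chaperones (left panel) and 13 ER chaperones (right panel), with K823R libraries left of WT libraries, 1 symbol per gene and a black bar for the median. All 11 genes listed as heat-inducible, Hspa8 among them, lie below 0 in WT replicate 2, and Hspa1a and Hspa1b swing most between the 2 K823R libraries.

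Hspa1a, Hspa1b, Dnajb1, Hsph1 and the activity gene Fos can be set side by side over the libraries. Hspa1a, Hspa1b and Dnajb1 were highest in K823R replicate 2, Hsph1 was highest in WT replicate 1, and Fos had 4.63 and 6.52 TPM in K823R, against 6.13 and 6.73 TPM in WT. Of 20 tested immediate early genes, 0 were called, 14 had the higher mean in K823R and 6 in WT, and 11 were lowest in WT replicate 2.

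The genes that regulate and assist these chaperones were also not called. Hsf1, the main heat shock factor, had 26.7 and 24.0 TPM in K823R, against 26.4 and 21.9 TPM in WT, and overlapped. Hsf4 had 47.2 and 42.0 TPM in K823R, against 40.2 and 38.5 TPM in WT, and Hsf2 had 17.1 and 17.3 TPM in K823R, against 16.9 and 16.3 TPM in WT. For Hsf4 and Hsf2 both K823R libraries were above both WT libraries, with log2 differences of 0.17 and 0.051 (limma adjusted p = 0.918 for Hsf4 and 0.958 for Hsf2).

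HSP90 takes over clients from HSP70, and 11 of the 19 genes of this family and its co-chaperones had the higher mean in K823R and 8 in WT (median log2 difference 0.046, 0 called). Hsp90aa1, the inducible form, had 882 and 918 TPM in K823R, against 1017 and 868 TPM in WT, and overlapped. Hsp90ab1, the constitutive form, had 1844 and 1764 TPM in K823R, against 1755 and 1517 TPM in WT, without overlap and with a log2 difference of 0.14 (limma adjusted p = 0.918). Cdc37, which hands kinases to HSP90, had 235 and 226 TPM in K823R, against 215 and 203 TPM in WT. Its relative Cdc37l1 went the other way, with 50.3 and 46.1 TPM in K823R against 54.2 and 54.0 TPM in WT.

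Of 16 HSP70 co-chaperones, 11 had the higher mean in K823R and 5 in WT, with a median log2 difference of 0.048. Grpel2, a mitochondrial exchange factor for Hspa9, had 10.2 and 9.58 TPM in K823R, against 14.1 and 11.5 TPM in WT, and Bag6, a triage factor for exposed membrane segments, had 95.6 and 91.9 TPM in K823R, against 88.5 and 79.0 TPM in WT. Neither overlapped, and neither passed the test (limma adjusted p = 0.918 for each). Of 14 tested genes of the cytosolic chaperonin and prefoldin, which fold actin and tubulin, 9 were higher and 5 lower, with a median of 0.011. The prefoldin gene Pfdn4 had 61.7 and 65.9 TPM in K823R, against 72.3 and 87.3 TPM in WT (limma unadjusted p = 0.046, adjusted p = 0.918), whereas Pfdn2 had 171 and 176 TPM in K823R, against 157 and 158 TPM in WT.

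Among the pathway lists of at least 5 tested genes, the median log2 difference was highest for the mitochondrial protease and stress genes (0.113). The unfolded protein response and ER folding came next (0.108), and this list had the largest share of genes on 1 side. Of its 22 genes, 20 had the higher mean in K823R and 2 in WT, and the median log2 difference was 0.11, against 57.4% higher and a median of 0.026 among all genes, and 0 were called. K823R stood clear above WT for 7 of the 22 and clear below for 0. Among all genes the shares were 19.4% above and 14.6% below, or 34% in either direction. Manf, a secreted ER stress factor, had 150 and 157 TPM in K823R, against 137 and 128 TPM in WT, with a log2 difference of 0.21 ± 0.075 (SE; limma unadjusted p = 0.041, adjusted p = 0.918). Creld2, an ER stress-induced folding factor, had 19.1 and 20.5 TPM in K823R, against 16.8 and 16.4 TPM in WT, with a log2 difference of 0.25 (limma adjusted p = 0.918).

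The median of the unfolded protein response list moved with the WT libraries. WT replicate 2 was the lowest library for 18 of the 22 genes, or 81.8%, against 35.7% of all genes, and without it the list's median log2 difference was 0.026. Without WT replicate 1 the median was 0.18. The stress factor genes Atf4 and Ddit3, which are central to the response, were the 2 that were lower in K823R, with log2 differences of -0.014 and -0.0093.

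Of the 9 mitochondrial protease and stress genes, 7 had the higher mean in K823R, and the median log2 difference was 0.11. Mitochondrial proteases clear what the chaperones cannot fold, but the list also holds Atf5, which is not a protease. The list's median became 0.030 when WT replicate 2 was left out, 0.047 when K823R replicate 1 was and 0.19 when WT replicate 1 was. Clpx had 22.8 and 21.7 TPM in K823R, against 20.7 and 17.9 TPM in WT, and Atf5, a transcription factor of mitochondrial stress, had 48.3 and 49.6 TPM in K823R, against 46.5 and 38.5 TPM in WT, both without overlap (limma adjusted p = 0.918 for each). WT replicate 2 was the lowest library for 8 of these 9 genes. Of 7 tested relatives outside the name pattern, 5 were higher in K823R. Hscb, a J-domain protein of iron-sulfur cluster assembly, had 31.0 and 31.7 TPM in K823R, against 28.2 and 25.3 TPM in WT. The groups did not overlap, and the test was not passed (limma adjusted p = 0.918).

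Shared sequence limits some of these levels. A stretch of at least 200 bases at 95% identity or more with another gene was found for 29 of the 70 chaperones, and for 16 of them the other gene reached 1 TPM. Exons of 24 chaperones overlap a gene on the opposite strand. The longest such overlap with a gene at 1 TPM or more was that of Dnaja4, a class A gene, which shares 1581 exon bases with Wdr61. Hspa8 has processed pseudogenes of which the most abundant, Gm8355, reached 1.09 TPM. Dnajc17 matches the pseudogene Gm6257 over 912 bases at 97.0% identity, and Gm6257 was listed at 0.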

How the data were processed

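Messenger RNA of 4 trigeminal ganglion libraries was measured, 2 from TRPV1 K823R mice and 2 from WT littermates, grouped by the genotype in the sample labels. The authors deposited a table of TPM per gene, with mouse Ensembl identifiers. Per the submitters' processing notes, fastp 0.19.5, HISAT2, RSEM and edgeR were used with build GRCm38.p6, with no role given for each; the annotation release, strand setting and read counts were not given in the sources used. Depth is therefore unknown, and no interval for counting error is given. TPM are shares of a fixed total, so a gene's value also moves with the rest of its library.

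From the deposited TPM, log2(TPM + 1) was tested with limma 3.58.1 in R 4.3.3 (empirical Bayes with a variance trend, Benjamini-Hochberg adjustment over 15390 genes averaging at least 1 TPM, threshold 0.05), and checked on simulated data. Fold changes understate the change of low genes. An exact permutation test of 2 against 2 libraries cannot go below p = 0.333 and was not used. Count tests were not run, since the table holds TPM. Promoter windows are from RefSeq (58 of 70 genes matched), gene positions from GENCODE (70 of 70 identifiers matched), and shared sequence was found with BLAST 2.17.0.

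Members and gene lists were chosen with earlier results of these data known. Genes named are 10 well-known members, the 6 members with the smallest p in each direction, the 2 smallest p in each pathway list, Hsf1, Hsp90aa1, Hsp90ab1, Trpv1 and genes set beside them; Dnajc3, Dnajc5, Dnajc6, Dnajb6, Hspa12b, Hspb2, Hspb8, Hspbp1, Hspe1, Atf4 and Ddit3 were added after their values were seen. Values of 2 genes that these rules would name are not reported here.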

Additional observations from a re-analysis of the deposited data

How the results depend on the processing

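Over all 14 alternatives run, 28 of 39 named genes besides Trpv1 kept their direction, and 11 changed it, only when a library was left out. Most of the 39 were named for a small p in these same data. Where groups do not overlap, leaving out 1 library cannot change the sign, so the 28 are no measure of stability. Under every alternative that kept all 4 libraries, 0 chaperones were called by limma, and the smallest adjusted p was between 0.748 and 0.948. Over all genes, where 1 was called, the count was 0 with no filter, 3 with at least 1 TPM in 2 libraries, 2 with a mean of at least 10 TPM, 0 without a variance trend and 0 when any library was left out; the cause was not tested.

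Leaving out each library in turn moved medians and turned signs. The median log2 difference ranged from -0.010 to 0.085 for all chaperones and from -0.010 to 0.11 for the HSP70 family. It ranged from -0.037 to 0.15 for heat-inducible chaperones and from 0.013 to 0.10 for mitochondrial chaperones. For class C it was -0.0067 to 0.053, for small heat shock proteins -0.0035 to 0.20 and for class B 0.0013 to 0.036. ER chaperones ranged from -0.0065 to 0.067, HSP90 and co-chaperones from -0.030 to 0.11 and HSP70 co-chaperones from -0.016 to 0.085. Chaperonin and prefoldin ranged from -0.034 to 0.083 and the unfolded protein response from 0.026 to 0.18. Mitochondrial protease and stress genes ranged from 0.030 to 0.19 and the relatives from -0.053 to 0.060. Hspa5 ranged from 0.019 to 0.21, Hspd1 from 0.015 to 0.14, Dnajc17 from 0.30 to 0.61, Dnajc22 from 0.25 to 0.65, Dnajc15 from -0.41 to -0.19 and Dnajc25 from -0.47 to -0.15. Single genes that changed sign ranged from -0.048 to 0.30 (Trpv1, -0.048 without WT replicate 2), -0.39 to 0.29 (Hspa1a), -0.32 to 0.77 (Hspa1b), -0.037 to 0.15 (Hspa8), -0.036 to 0.11 (Hspa9), -0.26 to 0.10 (Hsph1), -0.28 to 0.19 (Hspb1), -0.053 to 0.24 (Dnajb1), -0.027 to 0.11 (Dnaja1), -0.44 to 0.046 (Dnajc19), -0.060 to 0.20 (Hsf1) and -0.18 to 0.051 (Hsp90aa1). The class B median of 0.011 was 0.046 with no filter, -0.021 with a mean of at least 10 TPM, -0.014 with median-of-ratios scaling and -0.0076 with quantile normalization, and the ER median of 0.033 was 0.0035 with quantile normalization.

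With the replicate number as a block, 0 genes and 0 chaperones were called. At an unadjusted p under 0.05 (limma) there were 916 genes with the block and 732 without it. The labels do not say whether the numbers pair the samples. The deviations of same-numbered libraries from their group means correlated at 0.050 over 15390 genes, which cannot decide it with 2 libraries a group. With 2 libraries a group and unknown depth, differences within the intervals above were not detectable.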
